A study of Mus musculus with 37 samples.

Results

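Il15 and Il18 encode cytokines that myeloid cells make for lymphocytes. The rows of the deposited transcript table that carry either gene name were taken, which gave 2 of 6509 genes and 3 of 16993 transcripts. Il15 has 2 transcripts, here called the long form (ENSMUST00000034148) and the short form (ENSMUST00000163223), and Il18 has 1 transcript (ENSMUST00000059081). The rows were taken by gene name, although earlier results of these data were known when the 2 genes were chosen.

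RNA was sequenced from 5 myeloid cell types of C57Bl6 mice: thioglycollate-elicited peritoneal macrophages selected by adherence, bone marrow neutrophils from pooled mice matured overnight in GM-CSF, splenic dendritic cells (sDCs) enriched with magnetic beads and, both derived from bone marrow culture, mast cells and eosinophils. Each cell type was left untreated, or received IL-10 (100 ng/ml for 4 h), LPS (100 ng/ml for 4 h), or IL-10 and then LPS, except that eosinophils received no IL-10. The 18 groups hold 2 replicates each, and the table holds only the authors' mean of them for each transcript. IL-10 came 4 h before LPS, so by the treatment times the groups with both were harvested 4 h later than those with IL-10 alone. The untreated and LPS groups are taken to follow the same scheme, so LPS and longer culture cannot be told apart.

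IL-15 is a cytokine of the common gamma chain family that sustains natural killer cells and memory CD8 T cells. A myeloid cell usually presents it in trans, bound to its own IL-15 receptor alpha chain, to a lymphocyte that carries the shared beta and gamma chains. IL-18 belongs to the IL-1 family, is made as a precursor that caspase-1 cleaves after inflammasome assembly, and drives interferon gamma production, while IL-18 binding protein keeps it from its receptor. Both genes are known for control at the RNA level and after it, and RNA levels do not give the amount of secreted cytokine.

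Il15 lies on the minus strand of chromosome 8 (chr8:84855536-84927121, NCBIM37, the assembly called mm9 elsewhere). The long form has 8 exons, 1908 bases and 486 coding bases for 162 residues. The short form has 7 exons, 1863 bases and 441 coding bases for 147 residues, because it lacks exon 6 (chr8:84861465-84861509), 45 bases that make 15 codons. Both models start and end at the same positions, so reads over this exon or its junctions tell them apart. The stretch is printed because all isoform shares below turn on it, with exon 6 in capitals and 15 bases of the coding sequence on each side.

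Il15 long form: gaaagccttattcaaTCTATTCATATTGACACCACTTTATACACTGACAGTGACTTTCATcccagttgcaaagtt
Il15 short form: gaaagccttattcaacccagttgcaaagtt

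Il18 lies on the plus strand of chromosome 9 (chr9:50383378-50389942, NCBIM37). Its model has 5 exons, 702 bases and 576 coding bases. This model begins at the start codon, 20573 bases downstream of the RefSeq start of the gene (position 50362805 on NCBIM37), so reads from the leading non-coding exon do not count towards it. No other annotated gene overlaps either model.

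The 250 bases upstream of the Il15 start (chr8:84927122-84927371, minus strand, NCBIM37) are printed because Il15 was among the genes with the largest LPS changes in macrophages and sDCs, and interferon regulatory factors are known regulators of this promoter. The capitals mark the only match among the motifs searched, the repeat bound by interferon regulatory factors (GAAA, any 2 bases, GAAA), here on the opposite strand and 18 to 9 bases upstream of the start.

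Il15 promoter: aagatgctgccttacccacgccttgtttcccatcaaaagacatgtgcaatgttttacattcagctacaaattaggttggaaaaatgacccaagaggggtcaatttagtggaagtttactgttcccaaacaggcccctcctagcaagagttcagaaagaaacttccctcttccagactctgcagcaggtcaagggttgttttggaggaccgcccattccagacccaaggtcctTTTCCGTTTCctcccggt

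This repeat was found in 3.4% of 15553 windows of this length upstream of the table's transcripts. The same search, on both strands, covered GAAA, any 3 bases and GAAA (2.2% of windows), the NF-kB motif as GGGA, any 2 bases and TTCC (1.19%) and in the looser form of GGGA, any 3 bases and TCC (4.06%, which includes every match of the stricter form), TTCNNNGAA (6.63%), TGANTCA (5.2%), GAGGAAGT (3%) and TATAAA (8.06%). None of these had a match in the Il15 window. In the window before the RefSeq start of Il18 (chr9:50362555-50362804, plus strand, NCBIM37) only TATAAA had a match, on the opposite strand, 175 to 170 bases upstream. A match is a description of the letters and says nothing of binding.

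Values are GC-normalised tag counts, and a gene's value is the sum over its transcripts (gene sum). Il15 was highest in sDCs and in macrophages given LPS. In sDCs its gene sum was 894 untreated, 755.5 with IL-10, 3648 with LPS and 2140.5 with both. In macrophages it was 155.5, 127.5, 2678.5 and 966.5 in the same order. In both cell types the 2 groups with LPS stood above the 2 without it, and the group with IL-10 and LPS lay below the group with LPS alone.

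The other cell types held less Il15. Mast cells had gene sums of 454.5 untreated, 237 with IL-10, 324 with LPS and 136.5 with both, so their untreated group was the highest. Neutrophils had 79, 61, 104.5 and 45. Eosinophils had 41.5 untreated and 42 with LPS, the lowest values of the 18 groups. The order of the 18 groups ran from sDCs with LPS through macrophages with LPS, sDCs with both and macrophages with both to untreated sDCs. Because the table has no spread within a group, neighbours in this order cannot be separated. Among all gene sums of a group, Il15 in macrophages stood above 30.5% of genes untreated and above 87.2% with LPS, and in sDCs above 64.1% and 90.8%.

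Il18 was detected mainly in macrophages and sDCs. In macrophages its gene sum was 133.5 untreated, 155 with IL-10, 894.5 with LPS and 419 with both. In sDCs it was 130.5, 213, 135 and 63, so the IL-10 group was the highest there and the group with both the lowest. Neutrophils had 15.5, 11.5, 51.5 and 24. In mast cells the values were 2.5, 1, 4 and 0.5, and in eosinophils 0.5 untreated and 3 with LPS. All 6 of these mast cell and eosinophil values lie under the minimum of 10 normalised tags that a gene had to reach in any group of a cell type, and no change within a cell type was called from them. They do enter the permutation tests and the correlations below. Per kilobase of transcript, which allows the genes to be compared, Il15 and Il18 stood at 1404 and 1274 tags in macrophages with LPS, and at 1913 and 192 in sDCs with LPS.

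**Figure D1:**
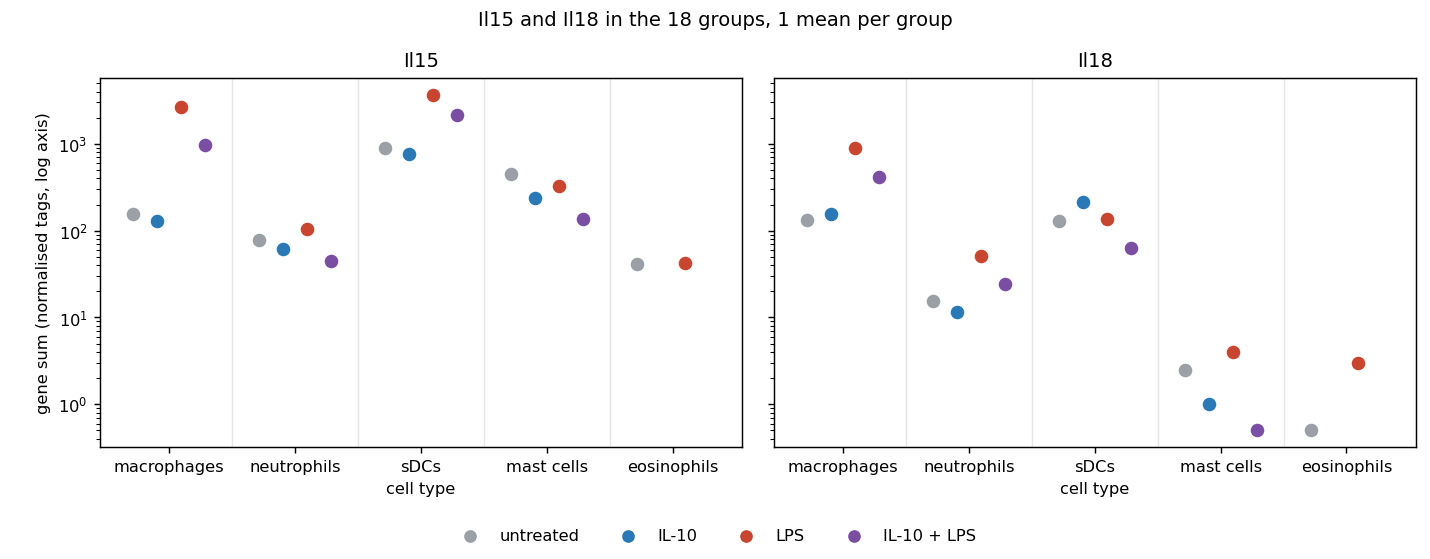
Gene sums of Il15 (left) and Il18 (right) in normalised tags on a log axis, by cell type, with 1 point for the authors' mean of each group and colour for the treatment. Il15 with LPS reached 2678.5 in macrophages and 3648 in sDCs, whereas Il18 with LPS reached 894.5 in macrophages and 135 in sDCs.

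The comparison of LPS with no treatment asks which cell types carry more of either cytokine RNA after endotoxin. Changes are differences of log2(gene sum + 1), called at 2-fold, and with 1 mean per group they carry no error and no test. Il15 was called higher in macrophages (log2 change 4.10, a 17.2-fold ratio of the means) and in sDCs (2.03, 4.08-fold). The part of the earlier library among the untreated macrophages in the macrophage changes was not tested. Of all genes kept in the cell type, 12.8% were called higher in macrophages and 9.04% in sDCs, and Il15 ranked 88th from the highest of 6064 genes in macrophages and 220th of 6050 in sDCs. The change of Il15 was 0.40 in neutrophils, -0.49 in mast cells and 0.017 in eosinophils, none of which reached 2-fold. In these 3 cell types 8.71%, 4.76% and 2.16% of genes were called higher, and in mast cells 5.46% were called lower.

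Il18 was called higher with LPS in macrophages (2.74, 6.70-fold) and in neutrophils (1.67, 3.32-fold), but its change in sDCs was 0.049. It ranked 194th from the highest of 6064 genes in macrophages and 273rd of 5949 in neutrophils. The 2 cytokines thus had different sets of cell types: both were called in macrophages, Il15 but not Il18 in sDCs, and Il18 but not Il15 in neutrophils. The difference between cell types was not tested. In the presence of IL-10, the LPS change of Il15 was 2.91 in macrophages (7.58-fold), and the ratio of its means in sDCs was 2.83-fold. Its values in neutrophils and mast cells were -0.43 and -0.79. For Il18 the LPS change in the presence of IL-10 was 1.43 in macrophages, -1.74 in sDCs and 1.00 in neutrophils, where it was exactly 2-fold on this scale and counts as called (0.66, not called, with a pseudocount of 10). With IL-10 present, 10.1%, 7.69% and 6.14% of genes in macrophages, sDCs and neutrophils were called higher with LPS and 9.34% in sDCs were called lower. Il18 in sDCs was therefore called lower with LPS when IL-10 was present, against a change of 0.049 when it was absent.

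The direction of LPS over all cell types was tested by an exact two-sided permutation test, which swapped labels within 9 pairs of groups matched on cell type and IL-10, for all 6509 genes. The mean log2 difference of Il15 was 1.03 ± 1.71 (SD over 9 pairs), higher with LPS in 6 of 9 pairs, with an exact permutation p of 0.121 (Benjamini-Hochberg adjusted 0.225). For Il18 it was 0.74 ± 1.32, higher in 7 of 9 pairs, with an exact permutation p of 0.137 (adjusted 0.243). Neither gene passed, whereas 26.0% of the 6509 genes passed at an adjusted p under 0.05. The pairs of mast cells and eosinophils, in which Il18 stays under 10 tags, are part of this test.

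**Figure D2:**
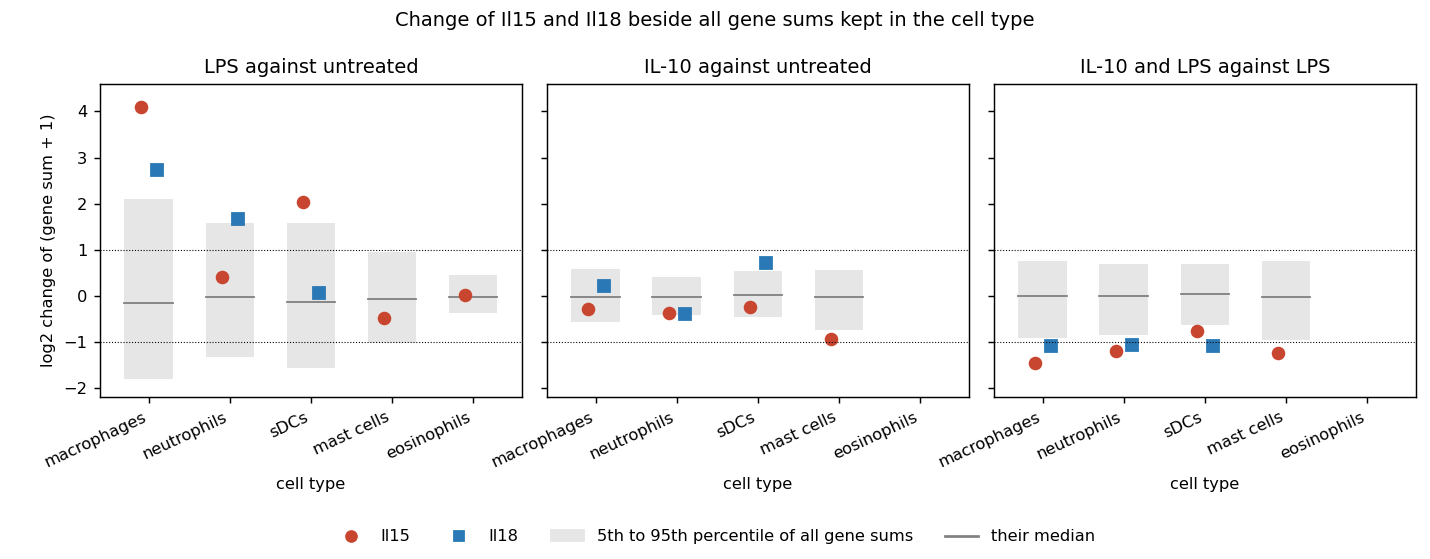
Log2 change of Il15 (circles) and Il18 (squares) by cell type for 3 comparisons, over grey bars for the 5th to 95th percentile of all genes kept in the cell type and a line for their median, with dotted lines at 2-fold. Il15 reached 4.10 with LPS in macrophages, and all 7 changes plotted for IL-10 and LPS against LPS were below 0.

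Markers of other cell types are given beside these values, since in bulk samples fewer cells of a type and less RNA per cell cannot be told apart. Of the 7 macrophage markers listed, 3 are held (Emr1, Cd68 and Mrc1). Their summed level in macrophages was 215283 untreated, 219156 with IL-10, 113958 with LPS and 95118.5 with both, and so lower in the groups where Il15 and Il18 were higher. Macrophage groups also held 3 of the 4 stromal genes listed (Col1a2, Col3a1 and Pdgfra), none of them at 0, with a summed level of 11992.5, 10355, 13829 and 11941 in the same order, against at most 4.5 in any other cell type. The part of these cells in the Il15 and Il18 values was not tested.

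In sDCs the 3 held dendritic markers of 10 (Itgax, Clec9a and Xcr1) summed to 4508.5 untreated, 3115 with IL-10, 1069.5 with LPS and 910.5 with both, a sum that is mostly Itgax (697.5 to 4075.5). Itgax was higher in macrophages (5445 to 13861) than in sDCs, whereas Xcr1 stayed at 185.5 to 205.5 in all sDC groups and at most at 63.5 elsewhere. Clec9a did not stay level and ran from 27.5 to 243.5 over the sDC groups, beside 60 to 103.5 in neutrophils. The sDC groups also held Kit at 3925 to 8800 and Mpo at 714 to 4890. In neutrophils the macrophage markers summed to 7588.5, 8398, 17932 and 10158, with none at 0, and the sum was highest where Il18 was highest. That sum is mostly Emr1 (4305.5 to 14667.5 over the neutrophil groups), whereas Cd68 (2788 to 4387.5) was not highest there. Neutrophil groups further held the eosinophil gene Epx at 18734 to 22781.5, and their own 5 held markers of 9 summed to 109474, 118095, 38166 and 58745. Mast cells (Kit, Tpsb2 and Tpsab1) and eosinophils (Epx and Ccr3) held their own markers at high levels, although Emr1 in eosinophils, 14338.5 to 22514.5, overlapped the 13108 to 21201 of macrophages. The part of these cells in the values of the members was not tested.

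IL-10 alone was compared with no treatment in the 4 cell types that received it. Il15 was lower in each, with a log2 change of -0.94 in mast cells, -0.37 in neutrophils, -0.28 in macrophages and -0.24 in sDCs, and none reached 2-fold. In mast cells, where the gene sum went from 454.5 to 237, Il15 ranked 180th from the lowest of 5734 genes, of which 2.79% were called lower. Il18 differed in sign between cell types, with 0.21 in macrophages, -0.40 in neutrophils and 0.70 in sDCs. The sDC value, from 130.5 to 213, ranked 187th from the highest of 6050 genes, of which 1.6% were called higher. No change of either gene with IL-10 alone was called, where 2.18% of genes in macrophages, 0.941% in neutrophils and 0.843% in sDCs were called lower and 2.34%, 1.26% and, in mast cells, 2.28% higher.

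The comparison of IL-10 and LPS with LPS asks how levels under endotoxin differ when IL-10 came first. The study counts a gene to the anti-inflammatory response when LPS raised it and IL-10 then lowered it. Il15 was called lower in macrophages (-1.47, 2678.5 against 966.5), neutrophils (-1.20, 104.5 against 45) and mast cells (-1.24, 324 against 136.5). In sDCs its change was -0.77 (3648 against 2140.5), short of 2-fold. LPS alone had not called Il15 higher in neutrophils (0.40) or mast cells (-0.49), so of these calls the one in macrophages follows a call with LPS. Genes called lower made up 4.62% in macrophages, 3.88% in neutrophils, 4.66% in mast cells and 2.08% in sDCs. Il15 ranked 142nd, 161st, 175th and 211th from the lowest in macrophages, neutrophils, mast cells and sDCs.

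Il18 was called lower in all 3 cell types in which it was kept, at -1.09 in macrophages (894.5 against 419), -1.07 in neutrophils (51.5 against 24) and -1.09 in sDCs (135 against 63). In sDCs it ranked 98th from the lowest of 6050 genes. There Il18 was not higher with LPS alone, so its lower value with both treatments was no reversal of an LPS change. The changes in neutrophils and sDCs lie near 2-fold, and with a pseudocount of 10 in place of 1 they were -0.86 and -0.99 and were not called.

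Of the LPS difference in gene sum, 32.1% remained with IL-10 for Il15 in macrophages and 45.3% in sDCs. For Il18 37.5% remained in macrophages and 23.6% in neutrophils. The median over all genes called higher with LPS was 66.6% in macrophages, 69.3% in sDCs and 48.1% in neutrophils, so all 4 values of the members lay below the median of their cell type. The same LPS group enters the choice of these genes and the share, and the comparisons share that group and the untreated one.

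The log2 change with IL-10 was more negative in the presence of LPS than in its absence in every cell type in which the gene was kept. The groups with IL-10 and LPS were harvested 4 h later than those with IL-10 alone, so LPS and a longer time since IL-10 cannot be told apart here. For Il15 the change with LPS minus the change without it was -0.30 in mast cells, -0.53 in sDCs, -0.83 in neutrophils and -1.19 in macrophages. For Il18 it was -0.67 in neutrophils, -1.31 in macrophages and -1.79 in sDCs. Over all genes the median of this value lay between 0.0049 (mast cells) and 0.035 (neutrophils), and 44.5% (neutrophils) to 49.0% (mast cells) of genes lay below 0.

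Over 8 pairs of groups matched on cell type and LPS, Il15 was lower with IL-10 in 8 of 8 pairs, with a mean log2 difference of -0.81 ± 0.475 (SD over 8 pairs). The exact two-sided permutation p was 0.0078, the smallest that 8 pairs allow, and the Benjamini-Hochberg adjusted p over 6509 genes was 0.148. The share of genes lower in all 8 pairs was 2.7%. In the pairs with LPS more time had passed since IL-10 than in the pairs without it. Il18 was lower in 6 of 8 pairs by a mean of -0.66 ± 0.793, with an exact permutation p of 0.055 (adjusted 0.289). Without mast cells, where Il18 stays under 10 tags, this mean was -0.46 with an exact permutation p of 0.188 (adjusted 0.591). Under this permutation test 0 of 6509 genes (0.0%) reached an adjusted p under 0.05, since the smallest adjusted p was 0.148, and 1141 had an unadjusted p under 0.05.

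The short form of Il15, which lacks exon 6, made up a small share of Il15 wherever it was found. In macrophages the short form stood at 12.5 tags untreated, 3 with IL-10, 30.5 with LPS and 36 with both, beside 143, 124.5, 2648 and 930.5 for the long form. Its share of Il15 tags was therefore 8.04%, 2.35%, 1.14% and 3.72%. Between the untreated and LPS groups the tags of the short form went from 12.5 to 30.5 and those of the long form from 143 to 2648, so nearly all of the difference in the gene sum lay in the long form.

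In sDCs the short form had 25, 18, 109 and 107.5 tags, or 2.80%, 2.38%, 2.99% and 5.02% of Il15, with the long form at 869, 737.5, 3539 and 2033. Both transcripts were higher with LPS there, and in the groups with LPS the short form had nearly the same value with and without IL-10. Mast cells had 22.5, 3, 0 and 1 tags, or 4.95%, 1.27%, 0% and 0.733%, with the long form at 432, 234, 324 and 135.5. In neutrophils and eosinophils the short form was listed at 0 in every group. At gene sums of 41.5 to 104.5 in those groups, shares like those of the other cell types would be a few tags, and the depth is not in the table, so its absence there cannot be read. Over all groups the short form held 2.85% of the tags and 2.92% per kilobase.

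**Figure D3:**
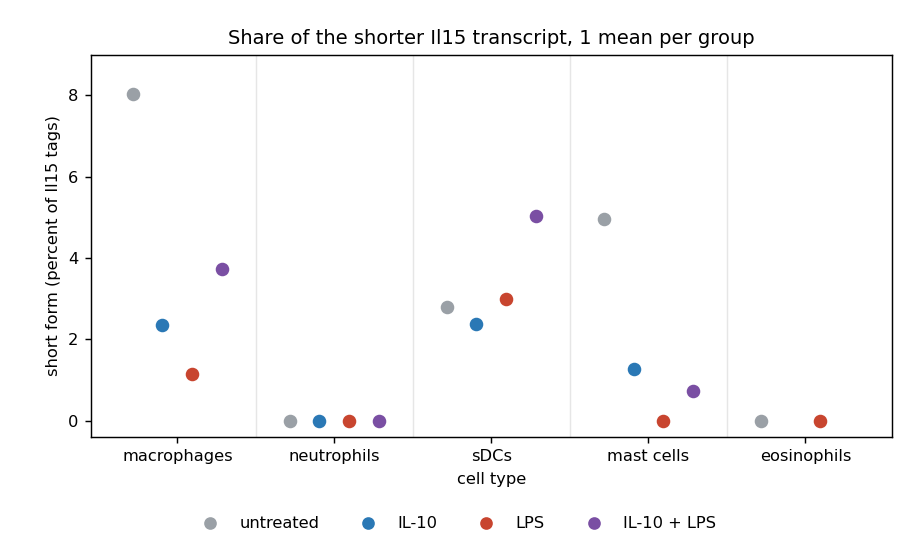
Share of the short form in the tags of Il15, in percent, by cell type, with 1 point per group and colour for the treatment. The share ran from 1.14% to 8.04% in macrophages and from 2.38% to 5.02% in sDCs, and neutrophils and eosinophils are listed at 0.

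The receptor chains that pair with IL-15 were held for Il15ra, Il2rb and Il2rg. Il15ra, which encodes the chain that presents IL-15 in trans, had gene sums of 145 untreated, 250.5 with IL-10, 2622 with LPS and 1700 with both in macrophages, and 1759.5, 1940.5, 5287 and 5211 in sDCs. With LPS it was called higher in macrophages (4.17) and sDCs (1.59), the cell types in which Il15 was called. With IL-10 and LPS against LPS the change of Il15ra was -0.62 in macrophages and -0.021 in sDCs, where Il15 had -1.47 and -0.77. Thus the gene sum of the presenting chain was not called lower in either cell type, and in mast cells it was higher by 0.88 (316 against 581) while Il15 was called lower.

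Neutrophils had 141, 293.5, 248.5 and 164.5 tags of Il15ra, and eosinophils had 41 untreated and 61.5 with LPS. The gene sum covers 8 transcripts, of which 6 are protein coding and 2 keep an intron. In sDCs these 2 held a large part of the sum, with 1672 and 855 tags with LPS and 1761 and 876.5 with both. Over the 9 LPS pairs Il15ra was higher in 8, by a mean of 1.34, with an exact permutation p of 0.020 (adjusted 0.062). Il2rb, the beta chain through which lymphocytes respond, was found mainly in sDCs at 1142 to 1288, at 15 to 66 in macrophages, and was listed at 0 in eosinophils. Il2rg, the common gamma chain, was present in all cell types, and in mast cells it went from 7752.5 to 22614 with LPS.

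The IL-18 receptor chains were low in macrophages and higher in the other cell types. Il18r1, the ligand-binding chain, had 17 to 24 tags in macrophages, where Il18 was highest. In neutrophils Il18r1 stood at 818.5 untreated, 912 with IL-10, 155.5 with LPS and 333.5 with both, and Il18rap, the accessory chain, at 8813, 10340.5, 1928 and 4688.5. Both chains were called lower with LPS in neutrophils (-2.39 and -2.19, where 7.9% of genes were called lower), where Il18 was called higher, and both were called higher when IL-10 preceded LPS than with LPS alone (1.10 and 1.28, where 3.06% of genes were called higher). Il18rap was also found in eosinophils (5111 untreated, 4174 with LPS) and in mast cells, where it ran from 1402.5 to 2885.

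Il18bp, which encodes the soluble inhibitor of IL-18, differed from Il18 in its order of groups in macrophages. Its gene sum there was 643.5 untreated, 1110 with IL-10, 1237.5 with LPS and 2127 with both, so the group with both was the highest while Il18 was at 419 against 894.5. Per kilobase, Il18bp stood at 884 and Il18 at 1274 tags with LPS, and at 1519 and 597 with both, so their order differed between the groups. In sDCs Il18bp had 303, 278.5, 681.5 and 399.5, and in neutrophils 387, 491.5, 469.5 and 256, with both lower when IL-10 preceded LPS. The changes of Il18bp with IL-10 and LPS against LPS were 0.78 in macrophages, -0.77 in sDCs and -0.87 in neutrophils, none of which reached 2-fold.

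**Figure D4:**
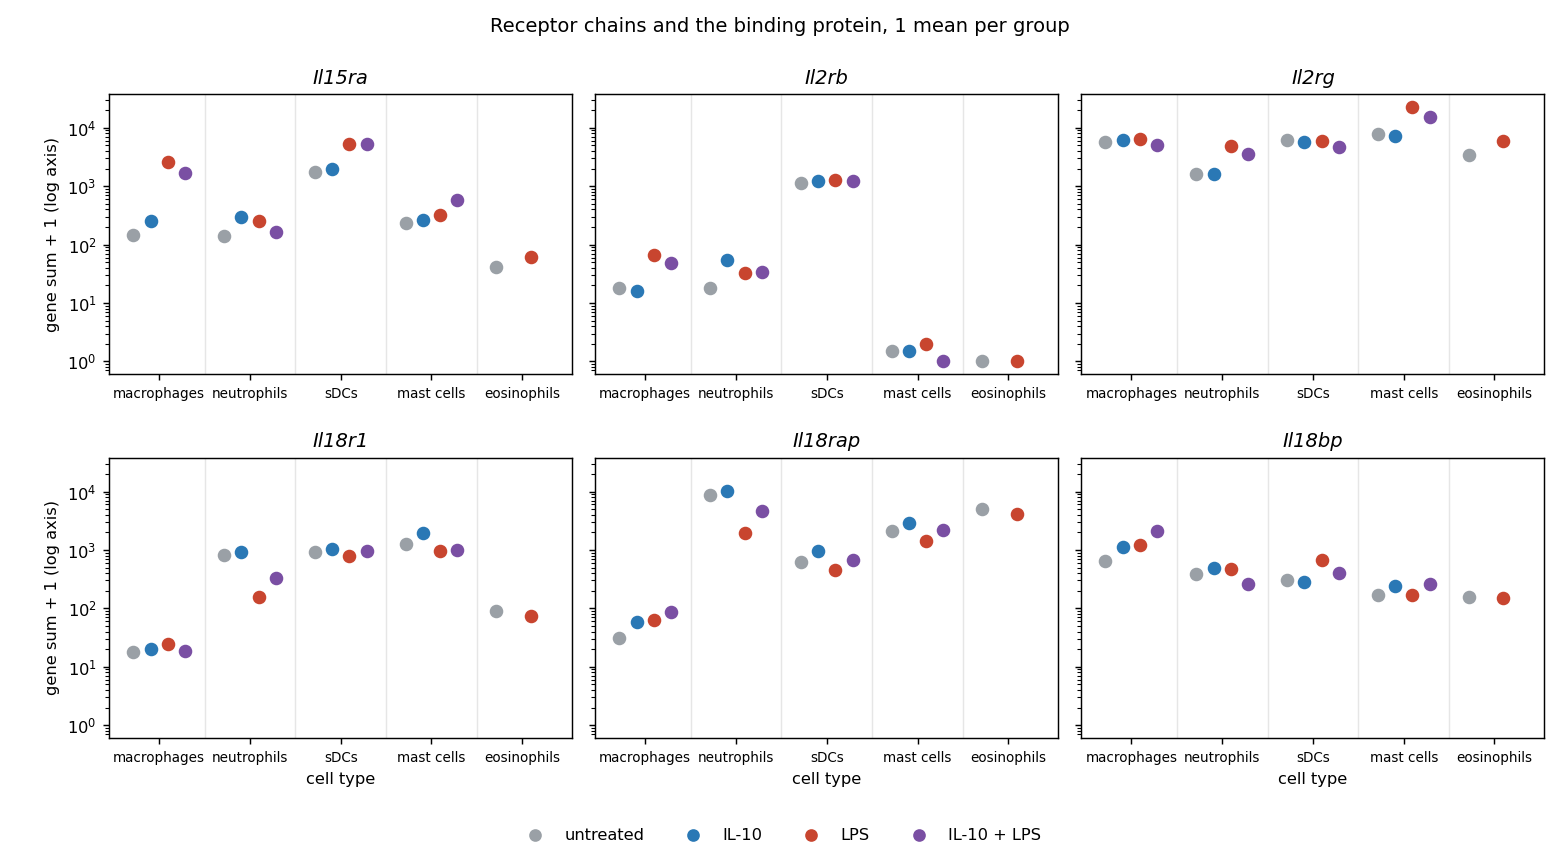
Gene sums plus 1 on a log axis for the IL-15 receptor chains (upper row) and for the IL-18 receptor chains and binding protein (lower row), by cell type, with 1 point per group and colour for the treatment. Il15ra with LPS reached 2622 in macrophages and 5287 in sDCs, and Il18r1 in macrophages stayed between 17 and 24.

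The enzymes that mature IL-18 and form pores belong to a list with the IL-18 receptor and its signalling, of which 14 of 25 genes are held. Casp1, the IL-18 converting enzyme, had 2246 tags untreated, 4831.5 with IL-10, 4208.5 with LPS and 6121 with both in macrophages. Casp4, the caspase that senses cytosolic LPS, had 551.5, 2054, 4244.5 and 5658. Unlike Il18, neither was called lower with IL-10 and LPS against LPS in any cell type. Over the 9 LPS pairs both were higher in all 9, by a mean of 0.62 for Casp1 and 2.10 for Casp4, with an exact permutation p of 0.0039 and an adjusted p of 0.024 for each, where 5.44% of genes were higher in all 9. Pycard, the inflammasome adaptor, had 1346, 1487, 994 and 1146 tags in macrophages. Nlrp1a and Nlrp1b, close paralogs whose reads can be shared, were lower in all 9 LPS pairs with the same exact permutation p, as were 10.5% of genes.

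By list, the IL-18 genes called higher with LPS numbered 3 of 14 in macrophages, and 2 of 14 both in neutrophils and in sDCs, beside 12.8%, 8.71% and 9.04% of all genes. Those called lower were 2 of 14 in macrophages, 5 in neutrophils and 2 in sDCs, beside 14.8%, 7.9% and 11.5% of all genes. In mast cells Casp4 was called higher and Il1r1 and Nlrp1b lower among 13 genes kept (4.76% and 5.46% of all genes), and in eosinophils Casp4 alone was called (2.16% of genes higher). The median over the list was 0.63 in macrophages (-0.15 over all genes), -0.54 in neutrophils (-0.032) and -0.14 in sDCs (-0.14). Of the IL-15 receptor and signalling list 7 of 19 genes are held, and 4 were called higher with LPS in macrophages (Cish, Il15ra, Il2ra and Il2rb), 2 in sDCs (Cish and Il15ra) and 1 in neutrophils (Il2rg), with none lower in these cell types. In mast cells Il2ra and Il2rg were called higher and Bcl2 lower among 6 genes kept, and in eosinophils none of 5 was called. The shares of all genes just given stand beside these counts too. With IL-10 and LPS against LPS, Jak3, a kinase of the gamma chain, was called higher in all 4 cell types (3.18% of genes in macrophages, 2.61% in sDCs and 2.88% in mast cells), and Cish in macrophages was called lower.

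Known regulators of the Il15 and Il18 promoters were held for 12 of 20 genes. With LPS 5 were called higher both in macrophages and in mast cells, beside 12.8% and 4.76% of all genes, and 4 both in neutrophils and in sDCs, beside 8.71% and 9.04%. None was called in eosinophils. Irf1 and Nfkb1 were among them in macrophages and sDCs, and also in mast cells (1.34 and 1.01), where Il15 was not called. Nfkb1 was among them in neutrophils too (1.72), where Il15 was not called either. Ifngr1 was called lower in macrophages and sDCs, and Ifnar1 in sDCs. The median change over the list was 0.67 in macrophages and -0.11 in sDCs, beside -0.15 and -0.14 over all genes. Irf1, an activator of the Il15 promoter, had gene sums of 993, 4060, 11859.5 and 8377 in macrophages and 9982, 9918, 25904 and 22529 in sDCs. With IL-10 alone Irf1 was called higher in macrophages (2.03, as were 2.34% of genes), where Il15 had a change of -0.28. With IL-10 and LPS against LPS none of the 12 was called in macrophages or sDCs, and 1 was called lower in neutrophils and 1 in mast cells.

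The pattern over the 18 groups most like that of Il15, by Pearson's r of log2(gene sum + 1) among 6248 genes with a largest group mean of at least 50, belonged to Ccdc50 (r = 0.944), Wdr48 (0.922), Il15ra (0.920), Sertad2 (0.916) and Zfp945 (0.906). For Il18 it belonged to Pid1 (0.958), Aif1 (0.953), Clec4a1 (0.946), Ptprf (0.940) and Apol9b (0.937). These values describe 18 group means that share cell types, and carry no p. After the mean of each cell type was subtracted, the closest were Cyp4x1 (0.969), Cuedc1 (0.964), Zbtb5 (0.960), Trp53i11 (0.958) and Kdm4a (0.958) for Il15, and Nod2 (0.880), Tyk2 (0.875), Tbce (0.864), Galnt3 (0.851) and Trim25 (0.848) for Il18. The Il18 values of mast cells and eosinophils, all under 10 tags, enter both sets of correlations and help to choose the genes named for Il18. Likeness of pattern is not likeness of size: Cyp4x1 in macrophages had 108, 104, 242.5 and 191 tags, a smaller change with LPS than the 155.5 to 2678.5 of Il15. Nod2, which senses bacterial cell wall fragments, had 138, 241, 1995 and 1632.5 in macrophages and 392.5, 395, 1615 and 680 in neutrophils. Its order in sDCs, at 1580, 1331.5, 803.5 and 686.5, differed from that of Il18 (130.5, 213, 135 and 63).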

How the data were processed

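RNA-seq libraries of 36 samples in 18 groups were used, with 2 biological replicates per group; 1 further sample has no column in the table and was not analysed here. Per the labels and methods, the authors aligned reads with RSEM 1.2.1 and Bowtie 0.12.9 to Ensembl transcripts (mm9), normalised tag counts for GC content with EDASeq and averaged the replicates; replicate 1 of untreated and IL-10 macrophages re-uses earlier libraries, and the sDC libraries, like those of mast cell replicate 2, were prepared with another kit. The deposited values are treated as a score: values are multiples of 0.5, and the highest value, 185338, is shared by all groups. Depth is not in the table, so no counting interval was given and a 0 is only listed as such. Of 17015 complete lines, 22 without a gene name were left out, and 1 line was broken off.

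Gene sums were formed with Python 3.11.15, numpy 2.4.6 and pandas 2.3.3 and drawn with matplotlib 3.10.9. Changes used a pseudocount of 1 and genes that reached 10 in any group of the cell type, and 2-fold was called. The only test was the exact permutation test over pairs of groups, tested on simulated data. Sequences come from NCBIM37 with GENCODE vM1, which holds 98.8% of the transcripts, and the Il18 start from RefSeq. The members and gene lists were chosen with earlier results of these data known; genes named were the members, their receptors and listed regulators, and the 5 genes of closest pattern; some listed genes are not reported here. Alternatives were other pseudocounts, scalings, minimums, single transcripts, tags per kilobase and leaving out each cell type.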

Additional observations from a re-analysis of the deposited data

Results flagged for a closer look

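Some genes differed in opposite directions in 2 cell types, with at least 2-fold between them; with 1 mean per group the difference was not tested. With LPS, the log2 change of Il15 was 4.10 in macrophages and -0.49 in mast cells. With IL-10 alone that of Il18 was 0.70 in sDCs and -0.40 in neutrophils. Among receptor and inhibitor genes, Il15ra with IL-10 and LPS against LPS had 0.88 in mast cells and -0.62 in macrophages. Il2rb with IL-10 had 1.57 in neutrophils and -0.17 in macrophages, at gene sums of at most 52.5 in these groups. Il2rg with LPS had 1.59 in neutrophils and -0.093 in sDCs. Il18r1 with LPS had 0.47 in macrophages and -2.39 in neutrophils, and with IL-10 and LPS against LPS -0.43 in macrophages and 1.10 in neutrophils, where the macrophage sums were at most 24. Il18rap with LPS had 1.02 in macrophages, at gene sums of 29.5 and 61, and -2.19 in neutrophils. Il18bp had 1.17 in sDCs and -0.075 in eosinophils with LPS, and 0.78 in macrophages and -0.87 in neutrophils with IL-10 and LPS against LPS.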

How the results depend on the processing

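No paired analysis was possible because the table gives 1 mean per group, so replicates could not be paired (the pairs of the permutation test are pairs of groups), and for the same reason no replicate was left out, no replicate block was fitted and no isoform share was formed per replicate. Of 174 alternative values for the 29 changes of Il15 and Il18, 170 stayed on the same side of 2-fold under the other pseudocounts, column scalings, the largest transcript alone and tags per kilobase. The exceptions were Il18 with IL-10 and LPS against LPS under a pseudocount of 10, at -0.86 in neutrophils and -0.99 in sDCs, and Il18 in neutrophils with IL-10 and LPS against IL-10, which is exactly 2-fold, at 0.66 with that pseudocount and 0.98 with median ratio scaling. The alternatives for IL-10 and LPS against IL-10 were chosen after seeing the data. For Il15 and Il18 no permutation result crossed an adjusted p of 0.05 under the alternatives run. Leaving out sDCs gave Il18 a mean LPS difference of 1.19 (exact permutation p = 0.031, adjusted 0.109) and leaving out macrophages one of 0.36 (exact permutation p = 0.453, adjusted 0.601), against 0.74. Leaving out macrophages gave Il15 one of 0.32 (exact permutation p = 0.484, adjusted 0.631), against 1.03. With a pseudocount of 10 the mean IL-10 difference of Il18 was -0.36 (exact permutation p = 0.148, adjusted 0.428), against -0.66.

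The share of genes changed at least 2-fold in either direction, pooled over cell types, was 15.8% with LPS, 3.55% with IL-10 and 6.73% with IL-10 and LPS against LPS. At 1.5-fold it was 29.4%, 9.25% and 15.8%, and for single transcripts 26.0%, 14.7% and 19.5%. With a minimum of 50 the IL-10 share was 2.16%. With Spearman's correlation 2 of the 5 genes closest to Il15 stayed among the 5 by level and 1 after subtracting cell type means, and 2 and 3 did for Il18.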
